A study of Mus musculus with 23 samples.

Results

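The windows described here are the intermediate Zbtb11 peaks at one-way promoters, a name used here for promoters outside divergent gene pairs, in mouse embryonic stem cells (ESCs). They are 1650 of the 7500 windows around the peaks shared by the Zbtb11 antibody and the FLAG antibody. They were chosen by a measured value, the mean coverage of the 4 Zbtb11 ChIP-seq libraries, which had to lie between 71.3 and 308.9, from about the median of all windows (71.34) to a value well above their upper quartile (147.7). Within these limits lay 2897 windows. Of these, 1883 overlapped a promoter, taken as 2000 bases upstream to 500 bases downstream of an annotated transcript start, and 233 of the 1883 were left out because they lay at divergent promoters, where the starts of 2 genes on opposite strands lie within 1000 bases and point away from each other. Coverage is the number of reads over a window after normalisation between libraries.

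Zbtb11 ChIP-seq was performed in 4 replicates of wild-type E14 cells, a feeder-free mouse ESC line grown in serum and LIF. FLAG ChIP-seq was performed in 3 replicates of a homozygous E14 line in which the endogenous Zbtb11 protein carries an N-terminal 3×FLAG tag, and in 2 replicates of the parental E14 cells as FLAG control. RNA-seq was performed in 3 groups of 3 replicates, all after 48 h of treatment. The EtOH control and the Zbtb11 KO were the same line, E14 with both Zbtb11 alleles floxed around exon 3 and an ERt2-Cre transgene in the Rosa26 locus, treated with the carrier ethanol or with 250 nM 4-hydroxytamoxifen (4OHT), which activates the Cre recombinase. The 4OHT control was E14 with wild-type Zbtb11 and Rosa26 alleles, also treated with 250 nM 4OHT, so that it differs from the EtOH control in the agent as well as in the line, and from the KO in the floxed alleles and the transgene. Each engineered genotype is represented by 1 line.

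A promoter is the stretch around a transcript start where transcription factors and RNA polymerase assemble. Promoters of ubiquitously used genes often lie in CpG islands, stretches rich in G, C and the CG dinucleotide that are mostly free of DNA methylation, and many hold short sequences read by factors of the ETS family, such as GABP, by NRF-1, YY1, NF-Y or ZNF143. Zbtb11 is a member of the BTB zinc finger family, which pairs C2H2 zinc fingers with a BTB domain.

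The RNA-seq libraries held 14301457 to 23876604 reads on genes. Libraries of replicate 1 stood apart from the other replicates in all 3 groups, and counts that rest on replicate 1 are given below without it as well. The ESC markers (10 of 10 tested) summed to between 4.54e+03 and 5.82e+03 CPM (counts scaled by library size) in a library, the primed and early lineage markers (6 of 11 tested) to between 61.3 and 95.4, the fibroblast markers (4 of 5 tested) to between 157 and 298, and the trophoblast markers (0 of 3 tested) to between 0.669 and 1.81. No row of the gene table is named Zbtb11. Its transcripts are annotated within the row of Rpl24, a ribosomal protein gene at 355 to 386 CPM in all libraries (KO versus EtOH log2 fold change -0.04), so the deletion of exon 3 could not be checked in these counts.

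The sequences below, read from mm9 on the strand of the named gene, come from windows that belong to the results on RNA or on FLAG coverage. Whether a change in RNA depends on the printed window was not tested. Each sequence is the centre of a window, shortened where annotated untranslated exons begin. Capitals mark CCGGAAG, the letters read by GABP and other ETS factors, and ACTACAA, the letters read by ZNF143 and THAP11, on either strand. The first set holds windows of some of the genes whose RNA differed between groups. The stretch at Zfp580 lies in an intron, that at Mrpl48 in an intron between alternative starts, and that at Zfp13 in an intron. The stretches at 2900097C17Rik and Pou4f2 lie upstream of the gene, and the site at Prrg2 lies in an untranslated exon.
Zfp580, chr7:5003872-5004071, plus strand: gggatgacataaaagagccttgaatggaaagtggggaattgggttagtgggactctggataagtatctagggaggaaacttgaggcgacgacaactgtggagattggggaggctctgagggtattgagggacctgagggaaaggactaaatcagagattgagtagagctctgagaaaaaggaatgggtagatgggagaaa
Mrpl48, chr7:107755718-107755923, minus strand: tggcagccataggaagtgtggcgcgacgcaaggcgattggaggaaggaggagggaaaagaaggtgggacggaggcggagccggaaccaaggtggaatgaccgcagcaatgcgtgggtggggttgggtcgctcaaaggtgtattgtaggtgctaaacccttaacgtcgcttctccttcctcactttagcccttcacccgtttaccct
Zfp13, chr17:23735613-23735812, minus strand: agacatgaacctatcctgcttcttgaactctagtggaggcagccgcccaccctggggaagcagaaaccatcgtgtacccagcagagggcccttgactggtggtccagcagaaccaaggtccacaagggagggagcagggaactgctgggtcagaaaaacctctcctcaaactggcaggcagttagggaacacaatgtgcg
2900097C17Rik, chr2:156218707-156218906, minus strand: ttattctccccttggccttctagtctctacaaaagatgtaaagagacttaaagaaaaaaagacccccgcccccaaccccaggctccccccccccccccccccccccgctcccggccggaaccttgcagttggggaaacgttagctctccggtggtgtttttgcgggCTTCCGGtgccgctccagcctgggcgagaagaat
Pou4f2, chr8:80962002-80962201, minus strand: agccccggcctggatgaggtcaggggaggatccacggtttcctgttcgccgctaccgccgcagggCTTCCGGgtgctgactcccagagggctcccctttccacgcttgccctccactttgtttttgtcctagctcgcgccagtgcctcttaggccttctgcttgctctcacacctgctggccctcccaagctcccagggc
Prrg2, chr7:52309477-52309505, minus strand: catagcggattCCGGAAGtcgccagcttc
The second set holds windows of genes with mitochondrial or other roles that had lower coverage with the FLAG antibody than with the Zbtb11 antibody. Mrpl34 encodes a protein of the mitochondrial ribosome and Atp5o a subunit of ATP synthase. The stretches at Mrpl34 and Atp5o lie just upstream of the gene, and the site at Dqx1 lies at the border of its first exon. Atp5o and Dqx1 were picked after their values were seen.
Mrpl34, chr8:73988659-73988824, plus strand: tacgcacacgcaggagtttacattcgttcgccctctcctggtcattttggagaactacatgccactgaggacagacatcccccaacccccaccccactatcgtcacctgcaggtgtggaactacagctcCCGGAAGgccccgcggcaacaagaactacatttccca
Atp5o, chr16:91931933-91932102, minus strand: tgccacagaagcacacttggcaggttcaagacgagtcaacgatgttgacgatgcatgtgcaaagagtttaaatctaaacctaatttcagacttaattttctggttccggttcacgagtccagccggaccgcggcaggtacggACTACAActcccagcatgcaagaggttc
Dqx1, chr6:83007836-83007864, plus strand: gtcactccaaaACTACAAgtcccagaatg

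The 1650 windows lay on 20 chromosomes, from 14 on the X chromosome to 219 on chromosome 11, where they made up 31.06% of 705 windows. Nearly all (1644) were 1200 bases long from start to end. They held the promoters of 1893 annotated genes, of which 1710 were protein-coding, 57 lincRNA, 54 processed transcripts and 20 each snoRNA and miRNA. A single gene was found at 1392 windows, 2 genes at 248 and 3 genes at 10. Where several genes shared a window (258), they were on both strands in 208, most often with starts that overlap head to head (128), as at Mrpl18, a mitochondrial ribosome gene, and Tcp1, a subunit of the cytosolic chaperonin. In 105 of the 208, transcript starts of the 2 strands pointed apart within 1000 bases, although the starts of the genes themselves did not, as at Hspd1 and Hspe1, which encode the mitochondrial chaperonin and its co-chaperonin. The windows are thus outside divergent pairs by gene starts, while 208 of the 1650 held promoters of both strands. Only 24 of the 1893 genes also had a promoter window above the upper limit.

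Coverage by the FLAG antibody was not used to choose the windows. In the Zbtb11 libraries the median coverage of the windows was 119.5, 123.4, 125.3 and 122.4 (mean 122.7 ± 2.44 SD, n = 4), which describes the choice. In the 3 FLAG-Zbtb11 libraries it was 112.4, 112.6 and 114.2 (mean 113.1 ± 0.986 SD, n = 3). Relative to the median of all windows in the same library this was 1.71 ± 0.055 for FLAG-Zbtb11, beside 1.71 ± 0.081 for Zbtb11. In the FLAG-Zbtb11 libraries the median of weak windows at one-way promoters (1486 windows below the lower limit) was 50.3 ± 4.20, that of windows at divergent promoters below the upper limit (384) was 91.6 ± 3.88, and that of strong promoter windows (736 above the upper limit) was 494 ± 130. The FLAG-Zbtb11 medians of the intermediate windows thus lay above those of the weak windows and below those of the strong windows in all 3 libraries, without overlap. These classes differ in Zbtb11 coverage by construction and were not tested against each other.

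**Figure D1:**
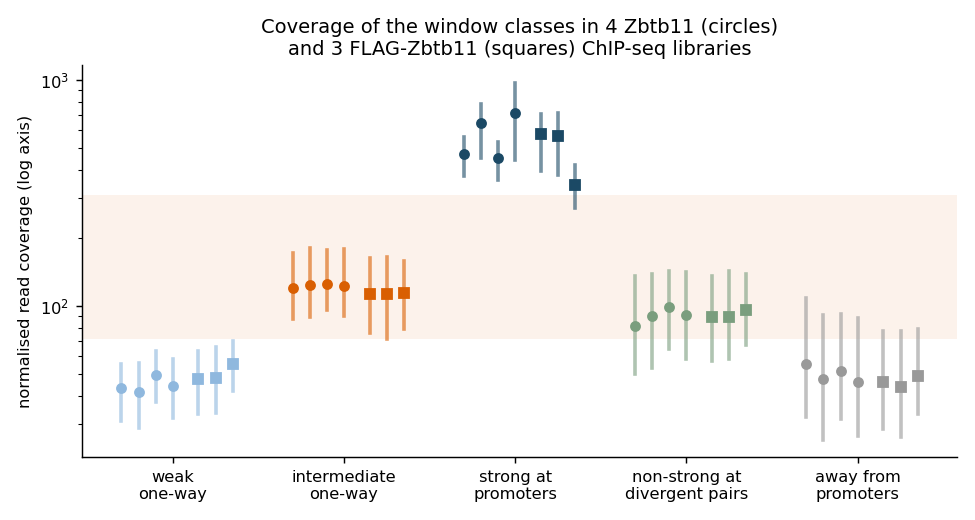
Normalised coverage (log axis) of each class of windows in the 4 Zbtb11 libraries (circles) and the 3 FLAG-Zbtb11 libraries (squares), as the median over windows with a line from the lower to the upper quartile, and with the limits of the choice shaded. The medians of the intermediate one-way windows sit between 112.4 and 125.3 in all 7 libraries.

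Single windows varied more than the class. Of the 1650 windows, 1186 (71.9%, Wilson 95% interval 69.7 to 74.0%) lay above the library median in all 3 FLAG-Zbtb11 libraries, and 170 (10.3%, 8.93 to 11.9%) lay below it in all 3. Intervals of shares cover counting error alone. By the corresponding limits on the FLAG-Zbtb11 mean (65.6, the median of all windows, and 260), 1273 windows (77.2%) were intermediate, 277 (16.8%) were weaker and 100 (6.06%) were stronger. The coefficient of variation of a window had a median of 16.8% over the 4 Zbtb11 libraries and 15.6% over the 3 FLAG-Zbtb11 libraries. Over the 1650 windows, log2 mean coverage by the 2 antibodies correlated with Pearson's r = 0.586 and Spearman's rho = 0.612, as a description, since the windows share libraries and the Zbtb11 values were limited by the choice. In 3 groups of 550 windows ordered by Zbtb11 coverage, from the lowest to the highest, the median FLAG-Zbtb11 coverage was 83.0, 119 and 183. All of the windows overlapped the deposited peak lists of both antibodies, as the table they come from requires. Called Zbtb11 peaks at the windows had a median width of 1426 bases, beside 1107 at weak and 1966 at strong promoter windows.

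The windows with the highest FLAG-Zbtb11 coverage were at Dlst, which encodes a subunit of the 2-oxoglutarate dehydrogenase complex of the citric acid cycle (449.6, 390.4 and 305.2 in the 3 libraries), Cops7a, a subunit of the COP9 signalosome (429.0, 393.3 and 310.6), Ippk, an inositol phosphate kinase (398.9, 381.6 and 285.2), Zfp105 (379.9, 416.7 and 264.3) and the pair Hspd1 and Hspe1 (405.3, 380.2 and 264.7). Each of these 5 windows held a CpG island and CCGGAAG, and in each the third library was the lowest. The windows with the lowest FLAG-Zbtb11 coverage were at Phlpp1, a phosphatase gene (3.166, 21.93 and 11.69), Gm10401 (34.83, 1.462 and 16.28), CT573086.1 (20.58, 21.93 and 17.12), Dlec1 (23.75, 14.62 and 22.55) and Gm10151 (26.91, 11.7 and 24.22). At Phlpp1 the 4 Zbtb11 libraries gave 83.36, 109.0, 122.9 and 108.2, and the 3 FLAG-Zbtb11 libraries were all lower. Of these 5, the window at Phlpp1 alone held a CpG island and that at Dlec1 alone held CCGGAAG.

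At the limits of the choice, Zbtb11 coverage was continuous. Just inside the lower limit were the windows at Atcay (71.31) and Lmf1 (71.31), and just outside it those at Cdca7 (71.25) and Dkkl1 (71.19). Just inside the upper limit were the windows at Psma6, a proteasome subunit (307.5), and Nedd1 (306.9), and just outside it those at Zdhhc4 (309.1) and Ap1b1 (309.7).

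The centres of the windows clustered at transcript starts. The median distance from the centre to the nearest start was 109 bases, with a median signed offset of 4 bases downstream. Of the 1650 centres, 790 (47.9%, 45.5 to 50.3%) lay within 100 bases of a start and 1434 (86.9%, 85.2 to 88.5%) within 500 bases. The share within 100 bases was 39.6% (37.2 to 42.2%) for weak windows at one-way promoters, 60.7% (55.7 to 65.4%) for windows at divergent promoters and 66.3% (62.8 to 69.6%) for strong promoter windows. Centres lay upstream of the start in 790 windows (47.9%), and more than 1000 bases upstream in 77 (4.67%).

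**Figure D2:**
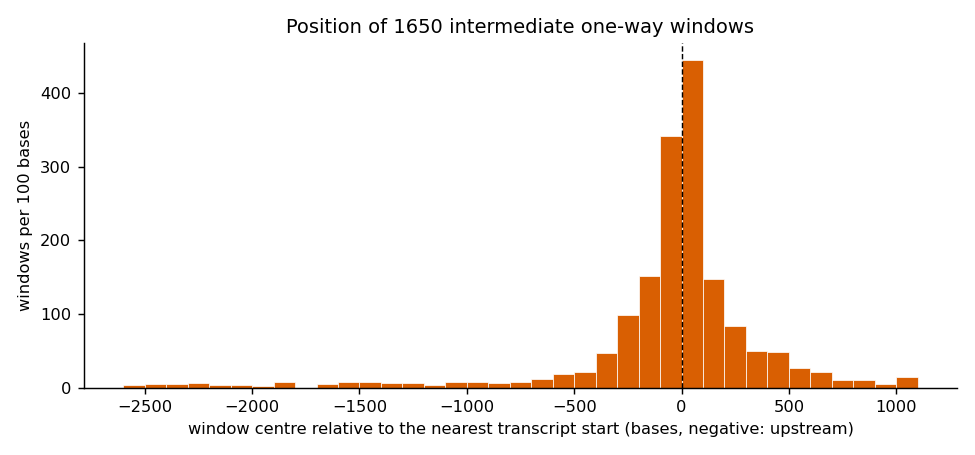
Number of intermediate one-way windows per 100 bases by the position of their centre relative to the nearest transcript start (bases, negative upstream). The bars on both sides of the start are the highest, with 342 windows upstream and 445 downstream.

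Most windows held a CpG island, defined as at least 500 bases with at least 55% G and C and an observed to expected CG ratio of at least 0.65. This was the case for 1373 windows (83.2%, 81.3 to 84.9%), beside 74.0% (71.7 to 76.1%) of weak, 94.8% (92.1 to 96.6%) of divergent and 89.95% (87.56 to 91.9%) of strong promoter windows, and 10.9% (9.89 to 12.0%) of the 3244 windows away from promoters. The median G and C content of the intermediate windows was 57.5%.

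The letters CCGGAAG, searched on both strands in the central 300 bases, were found in 687 of the 1650 windows (41.6%, 39.3 to 44.0%). They were found in 29.5% (27.2 to 31.8%) of weak, 42.7% (37.9 to 47.7%) of divergent and 52.3% (48.7 to 55.9%) of strong promoter windows, in 16.3% (15.1 to 17.6%) of windows away from promoters, and in 11.3% (10.9 to 11.7%) of 300 bases around the starts of all 22380 protein-coding genes. The intervals of weak, intermediate and strong windows did not overlap, while those of intermediate and divergent windows did. Within the intermediate windows, matches were most frequent within 50 bases of the centre (2.51 per kb) and fell with distance to 0.116 per kb at 500 to 600 bases. In the 3 groups ordered by Zbtb11 coverage the share was 39.1%, 41.6% and 44.2%, with overlapping intervals (35.1 to 43.2%, 37.6 to 45.8% and 40.1 to 48.4%). Windows with CCGGAAG lay nearer to a start (median distance 76 bases, 687 windows) than windows without it (160 bases, 963 windows). Their median FLAG-Zbtb11 coverage was 126.6, 134.5 and 127.8 in the 3 libraries, above the 102.9, 95.04 and 103.5 of the windows without the letters in each library, while the medians of the mean Zbtb11 coverage were 127 and 117.

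**Figure D3:**
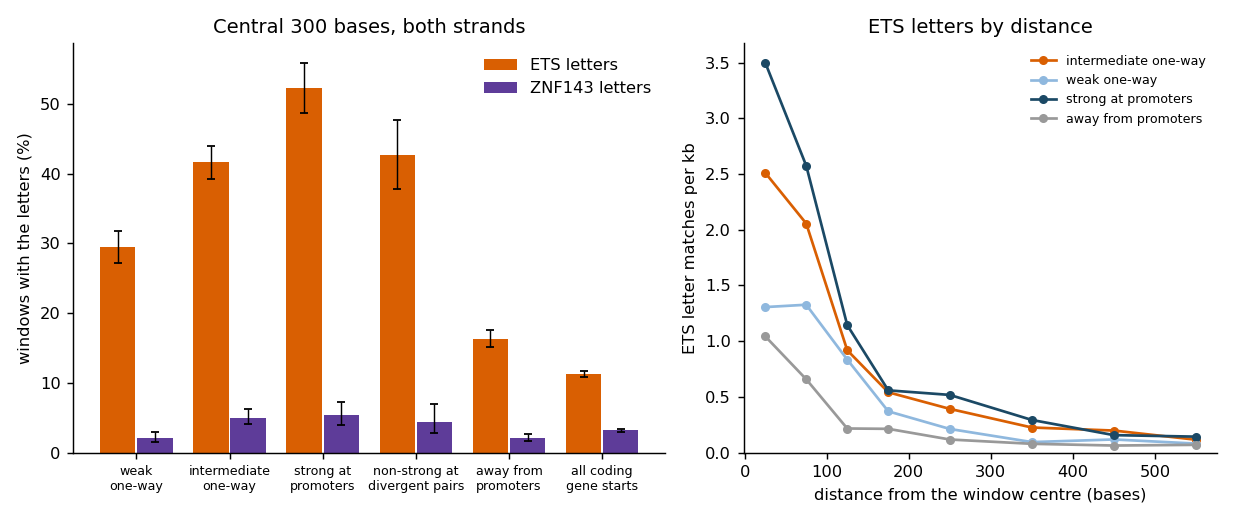
Left, the share of windows of each class, and of protein-coding gene starts, with the ETS or the ZNF143 letters in the central 300 bases (%, bars from 0 with Wilson 95% intervals), and right, matches to the ETS letters per kb against distance from the window centre (bases). The intermediate one-way windows reach 41.6% and, at the centre, 2.51 matches per kb, between the weak (1.31) and the strong promoter windows (3.501).

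Of the 8 other motifs searched, ACTACAA of ZNF143 and THAP11 was found in 83 windows (5.03%, 4.08 to 6.19%), beside 2.15% (1.53 to 3.02%) of weak windows, 5.44% (4.02 to 7.32%) of strong promoter windows and 3.20% (2.98 to 3.44%) of all protein-coding starts. The CCAAT box of NF-Y was found in 21.1% (19.2 to 23.1%), beside 35.7% (35.1 to 36.3%) of protein-coding starts. The GC box GGGCGGGG of SP and KLF factors was found in 20.2% (21.8% of starts), the E-box CACGTG in 7.64% (7.29%), AAGATGGC of YY1 in 3.70% (3.79%), GCGCATGC of NRF-1 in 2.36% (3.10%), TTTCCCGC of E2F in 2.24% (1.32%) and TGACGTCA of CREB and ATF factors in 2.00% (2.23%). A match describes letters in the sequence and does not show that the factor was bound.

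A group of intermediate windows had lower coverage with the FLAG antibody than with the Zbtb11 antibody. The FLAG antibody was used in the tagged line and the Zbtb11 antibody in wild-type cells. The antibody, the tag and the line therefore cannot be told apart. All 3 FLAG-Zbtb11 libraries lay below all 4 Zbtb11 libraries at 399 windows (24.2%), beside 16.8% of all 7500 windows, and above them at 186 (11.3%), beside 11.2% of all windows. The log2 ratio of mean FLAG-Zbtb11 to mean Zbtb11 coverage was below -1 at 205 windows (12.4%), a limit set after the values were seen. This share was 1.75% of weak, 5.47% of divergent and 7.07% of strong promoter windows and 12.6% of windows away from promoters. Because intermediate windows were chosen on Zbtb11 coverage, windows with high values in the Zbtb11 libraries are favoured among them and disfavoured among the weak windows. At the 205 windows the median coverage was 145.6, 165.1, 151.4 and 136.6 in the Zbtb11 libraries and 52.24, 48.25 and 52.19 in the FLAG-Zbtb11 libraries.

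The 205 windows also differed from the others in sequence, which the ratio did not use. CCGGAAG was found in 35 of them (17.1%, 12.54 to 22.8%), beside 37.8% (34.2 to 41.4%) of the 686 windows with a log2 ratio from -1 to 0 and 51.8% (48.2 to 55.3%) of the 759 windows at 0 or above. ACTACAA was found in 33 of them (16.1%, 11.7 to 21.7%), beside 3.21% (2.13 to 4.81%) and 3.69% (2.56 to 5.28%). The longer stretch made of ACTACAA, any base and then TCCCA was looked for after the sequences printed above were seen. The printed windows of Atp5o and Dqx1, picked for low FLAG-Zbtb11 coverage with ACTACAA, hold it and are counted among the 205. Its count there is therefore a description and no independent support. The stretch was found in 20 of the 205 (9.76%, 6.41 to 14.6%), beside 1.75% (1.00 to 3.03%) and 1.32% (0.717 to 2.41%) of the others and 0.889% (0.774 to 1.02%) of all protein-coding starts. Over whole classes it was in 2.55% of intermediate, 2.87% of divergent, 2.85% of strong promoter and 0.471% of weak windows. Of windows with a log2 ratio below -1, it was in 6 of 21 divergent and 4 of 52 strong promoter windows. It was in 0 of 26 such weak windows and 2 of 407 away from promoters. CpG islands were found in 68.8% (62.1 to 74.7%) of the 205, beside 82.4% and 87.9%. The differences between the 205 and the other intermediate windows are larger than the counting intervals but were not tested over replicates.

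Examples of these windows, with Atp5o chosen after its values were seen, are given here. At Atp5o, a subunit of ATP synthase, the Zbtb11 libraries gave 134.5, 352.7, 211.9 and 267.9 and the FLAG-Zbtb11 libraries 20.58, 11.7 and 36.74. At Mrpl34 they gave 190.1, 359.1, 250.7 and 243.0 against 56.99, 49.71 and 48.85. At Pprc1, which encodes a coactivator of the PGC-1 family that acts on mitochondrial genes, they gave 168.9, 336.6, 279.1 and 257.2 against 64.9, 58.49 and 74.74. At Psmd3, a subunit of the proteasome, they gave 214.5, 355.9, 202.2 and 250.1 against 68.07, 61.41 and 50.94. In each of these 4 windows the groups of libraries did not overlap, and the second Zbtb11 library was the highest. By contrast, the window at Cox7a2, a subunit of cytochrome c oxidase, had 264.5, 335.0, 287.6 and 273.2 against 335.6, 405.0 and 284.7, with overlapping groups.

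**Figure D4:**
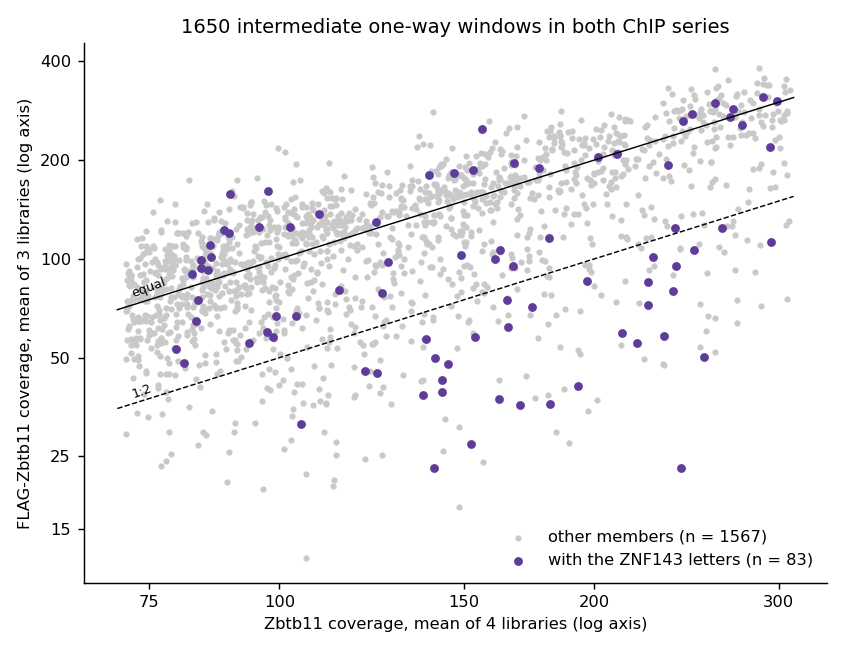
Mean FLAG-Zbtb11 coverage against mean Zbtb11 coverage (both log scales) of the 1650 intermediate windows, with the 83 windows that hold the ZNF143 letters in a darker colour than the 1567 others, a solid line at equal coverage and a dashed line at a log2 ratio of -1. The windows with these letters lie on both sides of equal coverage and make up 33 of the 205 windows whose log2 ratio of FLAG-Zbtb11 to Zbtb11 coverage is below -1.

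The RNA-seq comparison of the KO with the EtOH control addresses which genes change after loss of Zbtb11, and was read here for the genes at intermediate windows. Of the 1893 genes, 1662 passed the filter on low counts, and 231 (91 of them protein-coding) did not, 35 of which had no read. The tested genes had a median level of 9.71 CPM per kb of exon, beside 5.81 for all 14346 tested genes, 6.88 for genes at weak windows and 10.1 for genes at strong promoter windows.

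In the KO against the EtOH control, RNA of 5 genes was lower (0.301%) and that of 1 gene was higher (0.0602%) at an adjusted p under 0.05 (edgeR quasi-likelihood F test, Benjamini-Hochberg over all tested genes). Among all tested genes 0.843% were lower and 0.0558% were higher. The share of lower genes at intermediate windows was thus below that of all genes, and that of higher genes was close to it. The share of all genes rests on the strong promoter windows, whose genes made up 112 of the 121 lower genes. Among the 9887 tested genes with no window at a promoter, 7 were lower (0.0708%) and 0 were higher, a smaller share than at intermediate windows. Over the 1662 genes the log2 fold change had a median of -0.005, beside -0.001 over all tested genes, and 10th and 90th percentiles of -0.11 and 0.12. In this fit, which does not pair the replicates, an unadjusted p under 0.05 was reached by 13 genes (0.782%), beside 2.8% of all genes. With replicates of the same number treated as pairs (a block in the fit), it was reached by 116 genes (6.98%), beside 9.92% of all genes. Without the block, the 95% interval of the log2 fold change lay within -1 and 1 for 1603 genes (96.5%). The median width of this interval to either side was 0.3 without the block and 0.145 with it. A change above 1 log2 unit was therefore outside the interval for these genes. In bulk RNA, fewer cells of a type and less RNA per cell cannot be told apart.

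Of the 6 genes that passed the test, 4 also had a promoter window above the upper limit. The other 2 were Zfp580 and 2900097C17Rik. RNA of Zfp580, a C2H2 zinc finger gene, was 7.25, 5.90 and 7.31 CPM in the EtOH control, 1.05, 1.41 and 0.944 in the KO and 9.95, 9.03 and 7.82 in the 4OHT control. All KO libraries lay below all libraries of both controls (log2 fold change against EtOH -2.58 ± 0.20 SE, adjusted p = 0.000195 with edgeR). The window of Zfp580 was centred 838 bases downstream of its start, in an intron and without a CpG island or CCGGAAG. Its coverage was 219.0, 254.9, 229.5 and 305.1 with the Zbtb11 antibody and 207.4, 204.7 and 182.9 with the FLAG antibody. Gm15510 overlaps Zfp580 on the opposite strand.

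RNA of 2900097C17Rik, a gene of unassigned function, was 4.69, 4.79 and 4.81 CPM in the EtOH control, 1.63, 1.41 and 2.29 in the KO and 7.69, 6.01 and 5.95 in the 4OHT control. Again all KO libraries lay below all others (log2 fold change against EtOH -1.42 ± 0.21 SE, adjusted p = 0.0105 with edgeR). Its window was centred 242 bases upstream of its start, in a CpG island with CCGGAAG, with a coverage of 195.6, 314.2, 210.7 and 303.4 by the Zbtb11 antibody and 286.5, 247.1 and 148.2 by the FLAG antibody. No other annotated gene overlaps it.

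The other 4 genes had a strong window beside the intermediate window, and each shared the intermediate window with another gene. These were Rab6 for Mrpl48, Zscan10 for Zfp13, Man2b1 for Wdr83 and Prr12 for Prrg2. The whole window assigned to Wdr83 lay upstream of the annotated gene. Its centre was 104 bases from the nearest transcript start of the genes at the window. RNA of Mrpl48, a protein of the large mitochondrial ribosome subunit, was 14.2, 17.2 and 19.2 CPM in the EtOH control and 3.49, 5.19 and 4.27 in the KO (log2 fold change -1.96 ± 0.17 SE, adjusted p = 0.000365 with edgeR). The coverage was 106.7 at its intermediate window, which it shares with Rab6, and 718.1 at its strong window. RNA of Zfp13, a zinc finger gene, was 17.9, 17.8 and 19.7 CPM against 4.89, 5.96 and 7.15 (-1.62 ± 0.16 SE, adjusted p = 0.000766 with edgeR), with a coverage of 73.32 and 637.3 at these windows. RNA of Wdr83, a WD40 repeat gene, was 10.3, 11.7 and 11.4 CPM against 5.12, 6.55 and 6.46 (-0.88 ± 0.15 SE, adjusted p = 0.0297 with edgeR), with a coverage of 206.7 and 998.6. The gene that rose was Prrg2, which encodes a transmembrane protein with a Gla domain. Its RNA was 2.87, 2.44 and 2.50 CPM in the EtOH control and 12.9, 10.7 and 11.6 in the KO (2.17 ± 0.17 SE, adjusted p = 0.000181 with edgeR), with a coverage of 102.7 and 997.5. In all 4 genes the KO and EtOH libraries did not overlap. Mrpl48, Wdr83 and Prrg2 overlap annotated genes on the opposite strand, among them Rab6, Dhps and Nosip.

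Without genes that also had a strong window, 2 of 1638 genes were lower (0.122%) and 0 were higher in the edgeR test, with 9 at an unadjusted p under 0.05, and DESeq2 called 2 lower and 0 higher. Of the 872 genes at strong promoter windows 112 were lower (12.8%) and 8 higher, and of the 1306 genes at weak and the 653 at divergent windows 0 were called in edgeR, with 15 and 3 at an unadjusted p under 0.05, while DESeq2 called 3 and 0. By the coverage of the strongest window of a gene, 0 genes were called in the 4 bins from 71.3 to 250 (641, 659, 350 and 195 genes), 2 were lower of 193 from 250 to 308.9, 5 were lower of 309 from 308.9 to 500, and 107 were lower and 8 higher of 563 above 500. The 2 called genes with an intermediate window alone thus lay in the uppermost bin of the intermediate range, and the first bin above the range held a share of called genes of the same order.

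**Figure D5:**
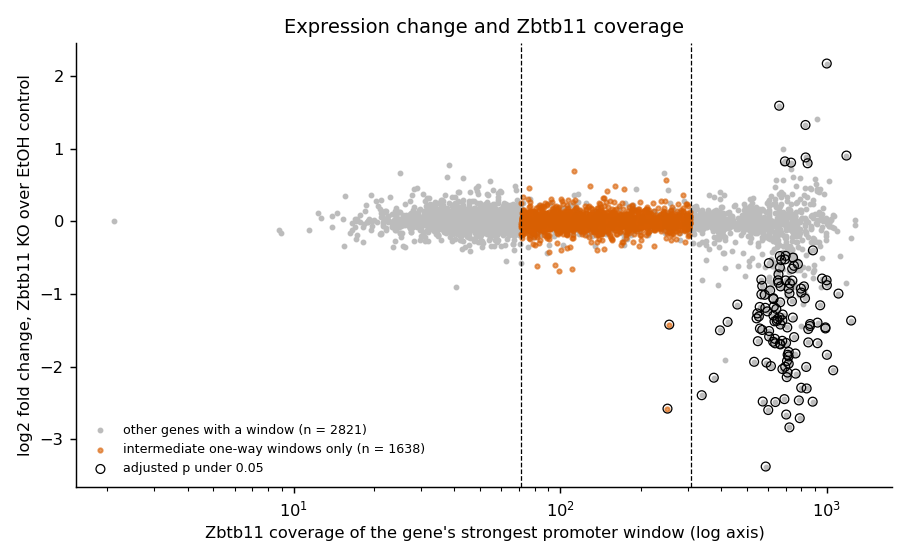
Log2 fold change of RNA, KO against EtOH control, of each tested gene against the Zbtb11 coverage of its strongest promoter window (log axis), for the 1638 genes with intermediate one-way windows and no strong window and the 2821 other genes with a window, with genes past the threshold ringed and dashed lines at the limits of the choice. The intermediate genes lie close to 0 (median -0.005), with Zfp580 and 2900097C17Rik ringed among them, and 107 of the lower genes lie above a coverage of 500.

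When replicates of the same number were treated as pairs (a block in the fit), 8 genes were lower and 3 higher (0.481% and 0.181%), beside 1.79% and 0.46% of all tested genes, and without genes that also had a strong window 5 and 2. Added were Rbbp9 (log2 fold change -0.31, blocked adjusted p = 0.0381 with edgeR), Frem2 (blocked adjusted p = 0.0177) and Hirip3 (blocked adjusted p = 0.0418) among the lower genes, and Mdm2, the main ubiquitin ligase of p53 (blocked adjusted p = 0.0145), and Hist1h1t (blocked adjusted p = 0.0494) among the higher genes. In the same blocked fit Rbbp9, Frem2 and Hirip3 were also lower in the 4OHT control, with wild-type Zbtb11, than in the EtOH control (log2 fold changes -0.22, -0.44 and -0.20, blocked adjusted p = 0.0324, 3.33e-05 and 0.0144 with edgeR). Between the KO and the 4OHT control their log2 differences were -0.09, 0.16 and -0.04, which did not pass the test (blocked adjusted p = 0.439, 0.0749 and 0.702 with edgeR). Mdm2 was higher in the KO than in the 4OHT control (0.44, blocked adjusted p = 3.25e-06), as was Hist1h1t (0.26, blocked adjusted p = 0.0443). Without the block neither passed the test in this comparison (adjusted p = 0.41 and 0.51 with edgeR). Mdm2 was also lower in the 4OHT control than in the EtOH control (-0.20, blocked adjusted p = 0.00983 with edgeR). Hist1h1t did not pass that test (0.11, blocked adjusted p = 0.425 with edgeR). Mdm2 stood at 169, 103 and 105 CPM in the EtOH control and 182, 123 and 137 in the KO, so that it was higher in each of the 3 pairs while the groups overlapped. Without replicate 1, which stood apart, 6 genes were lower and 1 higher. Without replicate 2, Zfp580 alone passed the test (adjusted p = 0.0451 with edgeR), and without replicate 3, 0 genes passed it (6 at an unadjusted p under 0.05, Zfp580 at an adjusted p of 0.0582 with edgeR). Without replicate 3 the log2 fold changes were -2.41 for Zfp580, 2.15 for Prrg2, -1.85 for Mrpl48, -1.72 for Zfp13, -1.64 for 2900097C17Rik and -0.91 for Wdr83, beside -2.58, 2.17, -1.96, -1.62, -1.42 and -0.88 with all replicates. Leaving out replicate 2 or 3 also lowered the count over all tested genes, from 121 lower genes to 13 and 21.

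The comparisons with the 4OHT control called more genes. In the KO against the 4OHT control, 55 genes at intermediate windows were lower (3.31%) and 36 higher (2.17%), beside 3.72% and 2.73% of all tested genes. In the 4OHT control against the EtOH control, 30 were lower (1.81%) and 34 higher (2.05%), beside 2.01% and 2.06%. With the block these counts were 287 and 289 (17.3% and 17.4%, beside 18.1% and 16.9% of all genes) in the first comparison and 304 and 275 (18.3% and 16.5%, beside 16.5% and 17.0%) in the second. The shares at intermediate windows were close to those of all genes. The 2 comparisons share the 4OHT control libraries, and both set different lines beside each other. In the KO against the 4OHT control, which both received 4OHT, loss of Zbtb11 cannot be told apart from the floxed alleles, the transgene and the line. In the 4OHT control against the EtOH control, the agent cannot be told apart from these.

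The genes with the largest fold change in these comparisons included the called genes above. The log2 fold change of the KO against the 4OHT control was -2.97 for Zfp580, 2.49 for Prrg2, -2.03 for Mrpl48 and -1.87 for 2900097C17Rik (adjusted p with edgeR 4.2e-05, 4.42e-05, 0.000156 and 0.000881). Pou4f2, a POU domain factor of sensory neurons, was at 1.72, 5.69 and 5.15 CPM in the 4OHT control, 0.641, 1.41 and 1.04 in the KO and 0.573, 1.24 and 1.48 in the EtOH control (KO against 4OHT control -2.02, adjusted p = 0.0452 with edgeR). In the 4OHT control against EtOH, Klf3, a zinc finger factor of the KLF family, was at 93.7, 99.8 and 88.9 CPM against 34.9, 43.8 and 45.1 (1.19 ± 0.11 SE, adjusted p = 0.000898 with edgeR), and at 35.6, 41.5 and 39.4 in the KO, where it did not differ from EtOH by the test (-0.09, 95% interval -0.34 to 0.17). Fbxw4, an F-box gene (1.28), Prkca, a protein kinase C gene (1.26), and Exoc3l (1.12) were also higher in the 4OHT control than in EtOH (adjusted p with edgeR 0.0367, 0.0182 and 0.0455), and 1700009P17Rik was lower (-1.22, adjusted p = 0.0311 with edgeR). Pou4f2 and 1700009P17Rik are expressed at a few CPM.

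The gene lists, drawn by patterns of gene symbols, place the windows at genes of many basic functions. A pattern can also take in genes with other roles. Intermediate windows lay at 7.64% of the 22380 protein-coding genes of the annotation, and at 12.1% of the protein-coding genes that were tested. Of the cytosolic ribosome 19 of 81 genes (23.5%) had one, among them Rps18 (coverage 299.6, with a further window at 972.7), Rplp2 (235.1), Rpl27a (228.6) and Rps19 (213.9). Of splicing factors 13 of 47 (27.7%) had one, led by U2af2 (271.5) and Snrpb (246.6), and of the proteasome 13 of 52 (25.0%), led by Psma6 (307.5) and Psmd3 (255.7). RNA polymerases followed with 6 of 27 (22.2%), DNA replication with 8 of 38 (21.1%), among them Pold3 and Mcm7, and chromatin modifiers and remodellers with 17 of 78 (21.8%), among them Brd7 (255.9), Ino80e (247.9) and Smarcd1 (215.5). Of the 76 tested genes of these 6 lists at intermediate windows 0 were called in the KO against EtOH by edgeR or DESeq2. In the edgeR fit without the block 0 reached an unadjusted p under 0.05, and the lists' median log2 fold changes lay between -0.032 and 0.051.

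In the lists of mitochondrial genes, intermediate windows lay at 12 of 76 genes of the mitochondrial ribosome (15.8%), with Mrpl34 (260.7), Mrpl18 (180.9), Mrpl12 (133.3) and Mrps23 (130.1) in the lead, and at 8 of 51 genes of respiratory complexes II to V (15.7%), among them Cox7a2 (290.1), Atp5o (241.7), Cox5b (144.3), Uqcrc2 (84.26) and Sdhb (89.47). A strong window was found at 19 of the 76 mitochondrial ribosome genes and at 1 of the 51 genes of complexes II to V. Intermediate windows lay at 1 of 38 subunits of complex I, Ndufv1 (197.8), while 7 of the 38 had a strong window, and at 1 of 22 genes of mitochondrial import, Tomm22 (166.3). They also lay at 2 of 17 mitochondrial aminoacyl-tRNA synthetases and 7 of 44 mitochondrial carriers, led by Slc25a1 (259.2), the citrate carrier. Among 13 regulators of mitochondrial genes there were 3, Gabpb1 (301.2), a subunit of GABP itself, Pprc1 (260.5) and Polrmt (253.9), the mitochondrial RNA polymerase. Of the 34 genes of these mitochondrial lists Mrpl48 alone passed the test in the KO, in edgeR and DESeq2. RNA of Gabpb1 was 46.1, 43.6 and 45.8 CPM in the EtOH control and 41.4, 45.4 and 41.9 in the KO (log2 fold change -0.07, 95% interval -0.31 to 0.16), with overlapping groups. RNA of Atp5o was 139, 162 and 162 CPM against 146, 147 and 157 (-0.04, -0.23 to 0.15), and that of Cox7a2 was 68.3, 70.2 and 63.8 against 77.6, 67.7 and 63.3 (0.04, -0.20 to 0.28).

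Among transcription factors, 52 of 371 genes named Zfp (14.0%) had an intermediate window, led by Zfp105 (304.7), Zfp64 (293.3), Zfp263 (292.5) and Zfp622 (284.6), and 2 of them, Zfp580 and Zfp13, were lower in the KO. Of the Zbtb family to which Zbtb11 belongs, 7 of 38 genes (18.4%) had one, with Zbtb24 (305.8), Zbtb3 (237.8), Zbtb48 (215.1) and Zbtb38 (197.9) in the lead, and 0 of the 7 were called in edgeR or DESeq2, with 0 at an unadjusted p under 0.05. Patz1, another BTB zinc finger gene, had a coverage of 106.8 and a log2 fold change of -0.10 (-0.44 to 0.23). Ubiquitin conjugation and removal had 26 of 171, vesicle and membrane traffic 33 of 200 and translation initiation 10 of 58. DNA repair had 8 of 63, among them Rad50 (295.5) and Rad21 (254.3), and the cell cycle list 11 of 85, among them Cdk2 (176.7). Each of these lists had 0 called in the KO against EtOH in edgeR or DESeq2. Of their 87 tested genes 1 reached an unadjusted p under 0.05 in the fit without the block. None of the 10 ESC markers had an intermediate window, and among the primed and early lineage markers Otx2 (81.59) alone did. The lists were not tested for enrichment.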

How the data were processed

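ChIP-seq libraries of E14 cells and 9 RNA-seq libraries were used as deposited, grouped by their labels. The coverage signal of 7500 windows was made by the authors, using Cutadapt for trimming, Bowtie 1.1.2 for alignment to mm9, Picard against duplicates, and MACS2 with IDR for peaks. They counted reads over consensus peaks with DiffBind, which normalised them between libraries. The mean columns are the authors' means. Because the values are normalised, the depth behind a window's coverage was not used, and only differences between libraries after scaling can be seen. The deposited peak lists are 1 list per ChIP over its replicates, with positions and no score. The deposited counts per gene were made by the authors with STAR and HTSeq and were not normalised. Between 26.21 and 32.41% of reads were not assigned to a gene and stayed out of library sizes.

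Windows were joined to the 37310 genes of GENCODE vM1, whose coordinates are mm9. Motifs were searched on both strands in the central 300 bases. The 14346 genes above 1 CPM in 3 or more of the libraries were tested two-sided with edgeR 4.0.16 in R 4.3.3 (TMM, legacy quasi-likelihood F test, the 3 groups in 1 fit without a block), with Benjamini-Hochberg adjustment over all tested genes and a threshold of 0.05. All adjusted p values are from edgeR. The n is 3 libraries per group, which the study calls biological replicates. Libraries that share a replicate number deviated together from their group means (r of 0.4301 to 0.8201 over genes, at most 0.5261 for other numbers), so the numbers pair the samples, by the data and not by a label. The blocked fit is given for the called genes at intermediate windows and, in KO against EtOH, for those of the other classes. Counts by coverage bin and by gene list are from fits without the block. So are unadjusted p values, except where the block is named. Intervals of shares are 95% Wilson intervals and cover counting error alone. Python 3.11.15, pandas 2.3.3, scipy 1.17.1 and matplotlib 3.10.9 were used for the rest. The edgeR fit, with and without the block, was tried on simulated counts with known changes.

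The windows and gene lists were chosen with earlier results of these data known. Genes and windows named are those past the threshold in KO against EtOH, the 5 with the largest fold change past it in each other comparison, up to 4 per list by coverage, those the paper names, the 5 windows highest and 5 lowest in FLAG coverage, and the 2 nearest each limit on either side. Genes added by the block, the log2 ratio limit, the longer ZNF143 letters and 2 printed sequences were chosen after values were seen. Printed sequences are a part of those chosen by the same rule, shortened at untranslated exons. Those of Fbxw4, Prkca, Gabpb1, Cox7a2 and Pprc1 were chosen by it but are not printed. Among these, the window at Prkca held ACTACAA with a log2 ratio of FLAG-Zbtb11 to Zbtb11 coverage of 0.24. The window at Pprc1 had a log2 ratio of -1.98 without ACTACAA. The alternatives were DESeq2 1.42.0, library sizes in place of TMM, no filter, a threshold of 0.01, the block, each replicate left out, genes without a strong window, and other definitions of windows, promoters, islands and motif stretches. The input libraries were not used here.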

Additional observations from a re-analysis of the deposited data

Results flagged for a closer look

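In the 108 groups of 4 Zbtb11 libraries at the named windows, 5 windows had a library far from the other 3, by a gap between it and the nearest value that exceeded the 95% limit of Dixon's test. Chance flags about 1 in 20 such groups, and over all 1650 windows 77 (4.67%) had such a library. At Mrpl48 the second library stood at 139.5, against 92.25, 97.48 and 97.57 in the others. At Ndufv1 the second library stood at 163.5, against 207.6 to 210.1. At Polr2h the second library stood at 94.58, against 141.9 to 144.5. At Otx2 the second library stood at 51.3, against 87.81 to 94.02. At Frem2 the first library stood at 191.2, against 161.4 to 164.1. The cause was not tested.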

How the results depend on the processing

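Of 100 results recomputed under an alternative, 61 stayed within the limits set for each kind of value and 39 moved. Counts of called genes were split by direction beforehand, so a change of direction was not examined. In KO against EtOH, the count of lower genes (5) was 8 with the replicate block, 3 at a threshold of 0.01, 2 without genes that also have a strong window, 2 when windows with genes on both strands were left out (added after the data were seen) and 0 to 6 with a replicate left out. The count of higher genes (1) was 3 with the block, 0 without genes that also have a strong window and 0 to 1 with a replicate left out. In KO against the 4OHT control, the lower genes (55) were 96 with DESeq2, 287 with the replicate block, 22 at 0.01 and 2 to 148 with a replicate left out, and the higher genes (36) were 63 with DESeq2, 23 with no filter on low counts, 289 with the block, 11 at 0.01 and 1 to 122 with a replicate left out. In the 4OHT control against EtOH, the lower genes (30) were 65 with DESeq2, 304 with the block, 7 at 0.01 and 0 to 120 with a replicate left out, and the higher genes (34) were 82 with DESeq2, 275 with the block, 5 at 0.01 and 0 to 139 with a replicate left out. Among the fits that left out a replicate, the highest counts came without replicate 1 and the lowest without replicate 2 or 3. The cause of these changes was not tested.

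The median log2 fold change in KO against EtOH (-0.005) was 0.033 with library sizes in place of TMM, against an SD over replicates of 0.0111, and -0.01 to -0.004 with a replicate left out. The share of windows with a CpG island was 93.39% with 200 bases, 50% G and C and a ratio of 0.6, and 82.68 to 84.23% with a Zbtb11 library left out. The share with CCGGAAG was 47.39% in the central 500 bases, and 41.05 to 41.83% with a Zbtb11 library left out. The median FLAG-Zbtb11 coverage was 111.9 to 113.3 with a library left out. The number of windows was 1623 to 1668 with a Zbtb11 library left out, and 1718 when chosen by the FLAG-Zbtb11 mean, 1273 of them shared (77.2% of the 1650 and 74.1% of the 1718). Coverage of windows had no counts behind it, so the smallest difference it can show is not known.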
